A study of Mus musculus with 9 samples.

Results

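The 10 genes described here make, store, recapture and break down serotonin: Tph2, Slc6a4, Slc18a2, Ddc, Gch1, Gchfr, Qdpr, Maoa, Maob and Slc22a3. They were taken by name from a table of 17187 genes, all 10 were in it, and all 10 had a mean level of at least 0.5 FPKM, the minimum for testing. FPKM is fragments per kilobase of transcript and 1e6 fragments. Poly(A) RNA was measured in punches of medullary brainstem that held the raphe nuclei, from mice labelled wild type, 3 weeks after an adeno-associated virus of serotype AAV2 was injected into the cortex. The 4 GFP libraries came from mice that received AAV2-GFP, which carries green fluorescent protein. The 5 HIL6 libraries came from mice that received a virus labelled AAV2-HIL6-GFP, which carries hyper-interleukin-6, a fusion of interleukin-6 with its soluble receptor that signals through gp130. Batch 1 held 3 libraries of each group, and batch 2 held 1 GFP and 2 HIL6 libraries. The virus was placed in the cortex and the RNA was taken from the brainstem, and the labels do not say which cells of a punch, if any, carried it. The sources used here do not give strain, sex, age, the promoter of the virus or whether each library came from its own animal, so the spread behind every p-value is that of these libraries and may be technical.

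Serotonin is made from tryptophan in neurons of the raphe nuclei, which in the medulla project to the spinal cord. Tryptophan hydroxylase 2 (Tph2) is the rate-limiting enzyme and needs the cofactor tetrahydrobiopterin, which GTP cyclohydrolase 1 (Gch1) begins to make and dihydropteridine reductase (Qdpr) regenerates. Aromatic amino acid decarboxylase (Ddc) completes the synthesis, the vesicular monoamine transporter VMAT2 (Slc18a2) loads serotonin into vesicles, and the serotonin transporter SERT (Slc6a4) takes it back up. Tph2 and Slc6a4 are markers of serotonergic neurons in the brain, whereas Ddc, Slc18a2 and Gch1 are also used by neurons that make noradrenaline, adrenaline or dopamine.

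Relative depth was 31.5 to 46.3 in units of 1e6 scaled fragments. Between batches 3138 of 13958 genes tested (22.5%) differed. The 12 genes of hindbrain position, most of them Hox genes, summed to 36.8 to 71.7 FPKM. The sum was lowest in GFP library 4 and next lowest in HIL6 library 1, at 47.5 FPKM. Pituitary genes stood at 78.9 FPKM in GFP library 1 and 32.0 FPKM in HIL6 library 4 and at 7.57 FPKM or less in the others. The 9 serotonergic markers summed to 68.4 to 153 FPKM in the GFP and 42.2 to 131 FPKM in the HIL6 libraries, and all were above 0. Tph2 and Slc6a4 are among these 9, so the sums are not separate from the members. Htr5b, another of them, ran from 0.22 to 34.1 FPKM. Markers of catecholamine neurons were low beside the serotonergic ones. Noradrenergic and adrenergic genes, 6 in all, summed to 1.82 to 5.52 FPKM per library, and 3 dopamine neuron genes to 2.11 to 3.355 FPKM. Among them, the dopamine transporter gene Slc6a3 was at 0.0588 FPKM or less, and the noradrenaline transporter gene Slc6a2 at 0.161 FPKM or less. GFP library 2 and HIL6 library 1 had the lowest of these serotonergic sums, 1 in each group and both in batch 1. Not every marker was low there, and Htr1a was at 89.4% and 92.7% of the median of the other 7 libraries. The differences that GFP library 2 and HIL6 library 1 move most are also given without them.

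The RefSeq promoters of Tph2, Slc6a4, Slc18a2 and Gch1 are shown, 4 of the members that moved together across libraries, as the values show. Ddc moved with Tph2 about as closely as Gch1 did, but its promoters, which hold none of the marked motifs, are not shown. They cover 250 bases before to 50 after the start, build GRCm38.p6, which is the mm10 assembly, and are written along the gene's strand. Capitals mark 3 motifs. GATAA, searched on both strands, is the core that GATA factors bind. The motif TGACG, searched on both strands, is part of the cyclic AMP response element. A TATA box, TATAAA, was searched on the gene's strand only.
Tph2 promoter, chr10:115184973-115185272, minus strand: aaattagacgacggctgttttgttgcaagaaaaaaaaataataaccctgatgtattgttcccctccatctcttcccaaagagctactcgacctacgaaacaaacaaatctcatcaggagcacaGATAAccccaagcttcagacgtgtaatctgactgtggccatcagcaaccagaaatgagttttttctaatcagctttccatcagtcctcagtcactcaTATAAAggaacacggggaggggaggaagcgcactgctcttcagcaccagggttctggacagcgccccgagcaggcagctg
Slc6a4 promoter, chr11:76998347-76998646, plus strand: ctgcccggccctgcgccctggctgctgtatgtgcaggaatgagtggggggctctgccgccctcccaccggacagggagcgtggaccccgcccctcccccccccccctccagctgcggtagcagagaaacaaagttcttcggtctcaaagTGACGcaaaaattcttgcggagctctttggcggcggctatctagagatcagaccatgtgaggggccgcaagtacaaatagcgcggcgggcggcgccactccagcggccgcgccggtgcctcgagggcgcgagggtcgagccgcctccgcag
Slc18a2 promoter, chr19:59260628-59260927, plus strand: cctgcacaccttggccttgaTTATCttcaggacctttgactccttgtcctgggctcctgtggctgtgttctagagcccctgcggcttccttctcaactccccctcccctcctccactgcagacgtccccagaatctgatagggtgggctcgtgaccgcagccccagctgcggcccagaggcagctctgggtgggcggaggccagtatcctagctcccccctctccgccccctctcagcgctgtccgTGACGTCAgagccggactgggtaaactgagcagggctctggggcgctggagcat
Gch1 promoter, chr14:47189364-47189663, minus strand: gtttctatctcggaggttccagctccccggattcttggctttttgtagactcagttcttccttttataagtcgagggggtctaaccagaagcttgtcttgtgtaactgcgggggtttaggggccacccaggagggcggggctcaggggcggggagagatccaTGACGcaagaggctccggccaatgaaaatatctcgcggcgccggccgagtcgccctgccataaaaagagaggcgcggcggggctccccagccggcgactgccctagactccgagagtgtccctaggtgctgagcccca

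Promoters were found for 9 of the 10 members, Maob being the exception. TATAAA began 30 bases before the start of Tph2 and was in no other member's promoter, against 8.32% of 32851 mouse promoters. GATAA was in the promoters of 3 members, Tph2, Slc18a2 and Maoa, against 25.4% of all. TGACG was in 5, Slc6a4, Slc18a2, Gch1, Maoa and Slc22a3, against 20.8% of all, and in Slc18a2 copies on both strands overlap at the start, as the run of capitals there shows. The core GGAA of ETS factors such as Fev was in all 9 and in 96.0% of all promoters, and is not marked, nor is CGGAA (either strand), which contains it and was in 3 members and 29.9% of all. Both promoters listed for Ddc held none of the 3 marked motifs. These matches describe letters in a window and are not binding sites.

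Tph2 lies at chr10:115078641-115185022 on the minus strand. Its level was 49.98, 21.7, 43.2 and 44.6 FPKM in GFP libraries 1 to 4 and 11.9, 46.5, 44.4, 41.1 and 29.8 FPKM in HIL6 libraries 1 to 5. The highest library was 4.20 times the lowest, and the groups overlapped almost fully. HIL6 library 1 was lowest, followed by GFP library 2 and then HIL6 library 5, while the other 6 lay between 41.1 and 49.98 FPKM. In a bulk punch, fewer serotonergic cells and less RNA per cell cannot be told apart.

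Slc6a4, at chr11:76998603-77032340 on the plus strand, was at 35.4, 15.2, 30.7 and 27.5 FPKM in the GFP libraries and at 8.08, 29.1, 30.9, 25.5 and 18.9 FPKM in HIL6 libraries. The same libraries were low as for Tph2, and the groups overlapped. Slc18a2, at chr19:59260896-59296012 on the plus strand, was at 23.6, 11.1, 20.8 and 23.6 FPKM in the GFP libraries and at 6.86, 19.5, 19.1, 22.4 and 16.5 FPKM in HIL6 libraries. Ddc, at chr11:11814101-11898144 on the minus strand, was at 39.6, 21.6, 35.6 and 29.7 FPKM in the GFP libraries and at 14.8, 34.3, 35.7, 27.0 and 23.7 FPKM in HIL6 libraries. Both had their lowest values in HIL6 library 1 and GFP library 2. The spread narrowed from Slc6a4 (4.38 times between the lowest and the highest library) to Slc18a2 (3.44 times) and Ddc (2.69 times).

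**Figure D1:**
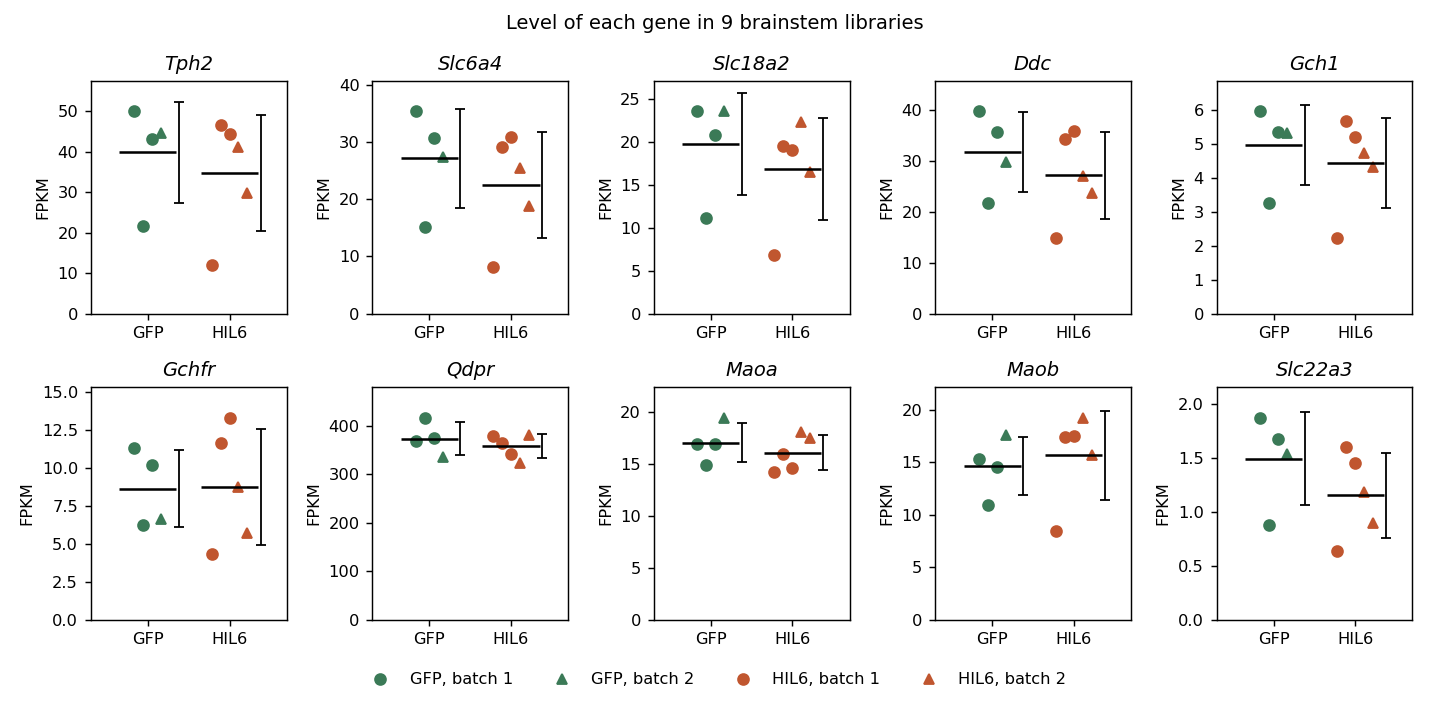
Level of the 10 genes in FPKM (vertical axes, each from 0) in GFP and HIL6 libraries. Points are libraries (circles batch 1, triangles batch 2), horizontal lines group means and bars SD (n = 4 and n = 5). For Tph2 the low points are 21.7 FPKM in GFP and 11.9 FPKM in HIL6, and the groups overlap for every gene.

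The cofactor branch split in 2. Gch1, at chr14:47153895-47189413 on the minus strand, was at 5.96, 3.26, 5.36 and 5.33 FPKM in the GFP libraries and at 2.24, 5.69, 5.22, 4.74 and 4.31 FPKM in HIL6 libraries, with the same lowest pair as Tph2. Gchfr, at chr2:119167773-119172390 on the plus strand, encodes the protein through which tetrahydrobiopterin feeds back on GTP cyclohydrolase 1. It was at 11.3, 6.28, 10.2 and 6.66 FPKM in the GFP libraries and at 4.31, 11.7, 13.3, 8.76 and 5.72 FPKM in HIL6 libraries. Its highest value was in HIL6 library 3, and HIL6 library 5 was below GFP library 2, unlike Tph2. Gchfr has 1 annotated transcript, of 645 nucleotides, and rested on 68 to 228 scaled fragments, a counting error of up to 12.2%. Qdpr, at chr5:45434021-45450236 on the minus strand, was by far the highest of the 10 at 368, 417, 375 and 335 FPKM in GFP and 378, 365, 342, 322 and 380.3 FPKM in HIL6 libraries. Its level differed by 1.29 times at most and was highest in GFP library 2, where Tph2 was low. The 6 oligodendrocyte genes, measured beside Qdpr because that enzyme is also made by glia, summed to 9411 to 11133 FPKM in GFP and 9816 to 13160 FPKM in HIL6 libraries. Their part in the Qdpr level was not tested.

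The monoamine oxidases lie side by side on the X chromosome in opposite directions, Maoa at chrX:16619698-16687818 on the plus strand and Maob at chrX:16709282-16817366 on the minus strand. Maoa was at 16.9, 14.9, 17.0 and 19.5 FPKM in the GFP libraries and at 14.2, 16.0, 14.6, 18.1 and 17.6 FPKM in HIL6 libraries. It varied by 1.37 times, and the 3 batch 2 libraries held the 3 highest values. Maoa was the 1 member of 10 that differed between batches, against 22.5% of all genes in either direction and 11.4% upward. It was higher in batch 2 by 0.25 ± 0.064 (SE) on the log2 scale (limma adjusted p = 0.0232). Maob, the oxidase of serotonergic neurons and astrocytes, was at 15.3, 10.9, 14.6 and 17.6 FPKM in the GFP libraries and at 8.49, 17.4, 17.5, 19.3 and 15.7 FPKM in HIL6 libraries. HIL6 library 1 and GFP library 2 were again lowest. The 6 astrocyte genes, Gfap among them, summed to 341 to 585 FPKM in GFP and 611 to 1034 FPKM in HIL6 libraries, with no overlap, and the 6 microglial genes to 89.6 to 105 FPKM and 107 to 135 FPKM. Gfap alone was at 41.7 to 227 FPKM in GFP and 257 to 564 FPKM in HIL6 libraries, and the sums of the other 5 astrocyte genes overlapped, at 299 to 443 FPKM and 347 to 471 FPKM. Their part in the Maob level was not tested.

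Slc22a3, at chr17:12418960-12507704 on the minus strand, encodes the organic cation transporter OCT3, a low-affinity carrier of monoamines. It was the lowest of the 10 at 1.88, 0.88, 1.68 and 1.54 FPKM in GFP and 0.64, 1.60, 1.46, 1.19 and 0.90 FPKM in HIL6 libraries. It was low in HIL6 library 1, GFP library 2 and HIL6 library 5, in the same order as Tph2. If all its fragments came from the longest transcript, of 4127 nucleotides, the lowest value rested on 85 fragments, a counting error of 10.9%.

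Relative to the median of the other 7 libraries, Tph2 was at 48.8% in GFP library 2 and 26.8% in HIL6 library 1. Slc6a4 was at 52.1% and 27.7%, and Slc18a2 at 53.5% and 33.0%. Gch1, Gchfr, Ddc and Slc22a3 lay at 57.3% to 63.1% in GFP library 2 and 41.3% to 43.1% in HIL6 library 1. Maob was at 62.7% and 48.7%, Maoa at 88.1% and 83.9%, and Qdpr at 114% and 104%. Outside the 10 genes, Fev, the ETS transcription factor of serotonergic neurons, was at 89.9% in GFP library 2 and 46.9% in HIL6 library 1. Lmx1b, another transcription factor of these neurons, was at 89.4% and 47.5%, while Gata2 was at 74.6% and 89.3% and Gata3 at 73.6% and 75.2%. The autoreceptor gene Htr1a was at 89.4% and 92.7%, and Th, the catecholamine enzyme, at 133% and 98.7%.

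**Figure D2:**
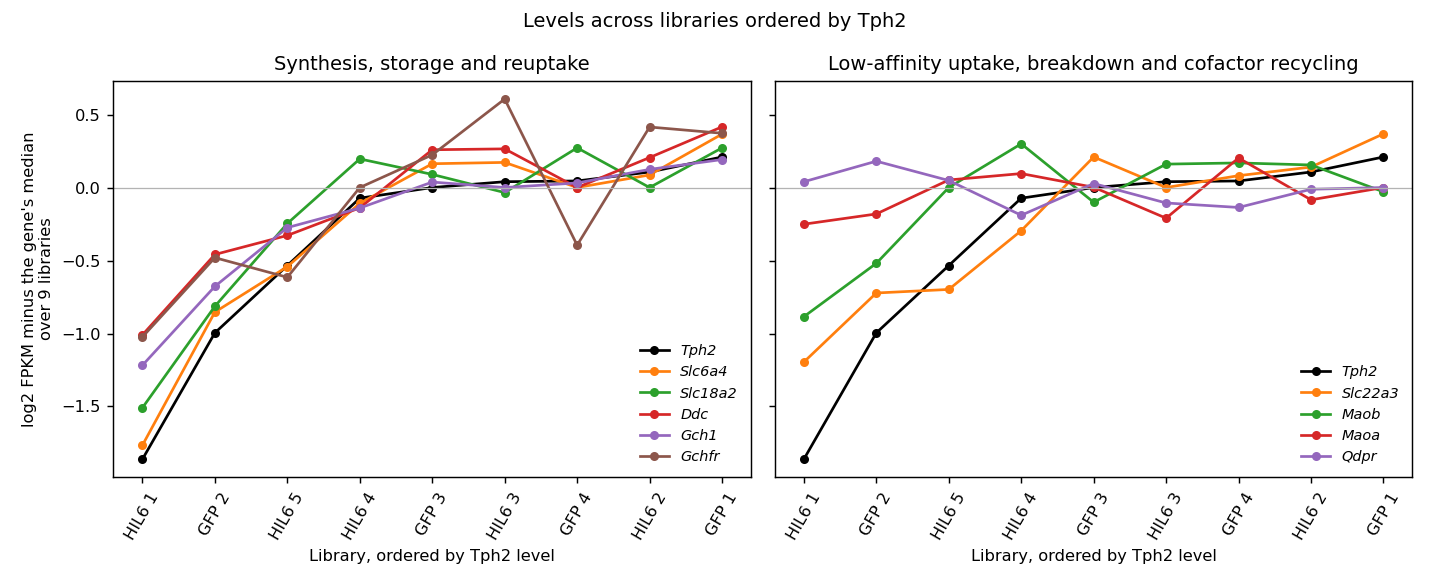
Log2 FPKM of each gene minus its median over 9 libraries (vertical axis), with libraries ordered by Tph2 level from lowest to highest. Tph2 is the black line in both panels. Lines of Slc6a4, Slc18a2, Ddc and Gch1 follow it at the low end, Maob follows in part, and Maoa and Qdpr stay near 0.

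Ratios between members within a library show how far they moved together. The Slc6a4 level was 0.708, 0.701, 0.711 and 0.616 times that of Tph2 in GFP libraries 1 to 4 and 0.679, 0.626, 0.696, 0.620 and 0.632 times in HIL6 libraries 1 to 5. The ratio thus spanned 1.16 times, while Tph2 itself spanned 4.20 times. The 3 batch 2 libraries held 3 of the 4 lowest ratios. HIL6 minus GFP, with batch as a term, was -0.047 ± 0.039 (SE) on the log2 scale, with an exact permutation p = 0.267 (two-sided, 60 arrangements within batches). The smallest p that 60 arrangements can give is 0.0167, and 13 ratios were tested, so 1 alone could not pass adjustment over them.

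The Slc18a2 ratio to Tph2 was 0.471, 0.512, 0.480 and 0.528 in GFP and 0.576, 0.419, 0.429, 0.544 and 0.551 in HIL6 libraries. The HIL6 ratios fell on both sides of the GFP range, below it in HIL6 libraries 2 and 3 and above it in the other 3 (HIL6 minus GFP -0.016 ± 0.11 (SE), exact permutation p = 0.967). The Ddc ratio to Tph2 was 0.793, 0.997, 0.822 and 0.666 in GFP and 1.24, 0.736, 0.803, 0.656 and 0.793 in HIL6 libraries. The Gch1 ratio was 0.119, 0.151, 0.124 and 0.120 in GFP and 0.189, 0.122, 0.117, 0.115 and 0.145 in HIL6 libraries. Both ratios were highest in HIL6 library 1 and next in GFP library 2, the libraries lowest in Tph2. Their differences between groups were 0.073 ± 0.18 and 0.12 ± 0.21 (SE), with exact permutation p = 0.7 and 0.667, and were -0.068 and -0.046 without HIL6 library 1 and 0.0041 and 0.041 without both libraries lowest in Tph2.

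The largest difference between groups relative to its error was in the Gchfr ratio to Tph2. It was 0.227, 0.290, 0.237 and 0.149 in GFP and 0.362, 0.251, 0.30, 0.213 and 0.192 in HIL6 libraries. Batch 2 was lower in both groups, and within each batch the HIL6 libraries lay higher, apart from HIL6 library 2, which was below GFP library 2. HIL6 minus GFP was 0.32 ± 0.15 (SE) on the log2 scale, exact permutation p = 0.0667, and it was 0.23 without HIL6 library 1. Without HIL6 library 2 it was 0.42 with an exact permutation p = 0.0333, the smallest that the libraries left allow and not adjusted over the 13 ratios. Without both libraries lowest in Tph2 it was 0.31 (exact permutation p = 0.0556, again the smallest possible). The ratio of Gchfr to Gch1, the feedback protein to its enzyme, was 1.90, 1.92, 1.91 and 1.25 in GFP and 1.92, 2.05, 2.56, 1.85 and 1.33 in HIL6 libraries. It was close to 1.9 in the 3 batch 1 GFP libraries, and its difference between groups was 0.20 ± 0.13 (SE), exact permutation p = 0.217, and 0.27 without both libraries lowest in Tph2.

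The Maob ratio to Tph2 was 0.307, 0.504, 0.338 and 0.395 in GFP and 0.713, 0.375, 0.394, 0.469 and 0.525 in HIL6 libraries, a difference of 0.33 ± 0.25 (SE), exact permutation p = 0.25, and of 0.14 without HIL6 library 1. Without both libraries lowest in Tph2 it was 0.28 (exact permutation p = 0.0556, the smallest possible there). Maob to Maoa was 0.906, 0.731, 0.861 and 0.903 in GFP and 0.596, 1.09, 1.20, 1.06 and 0.892 in HIL6 libraries. HIL6 library 1 had the lowest and HIL6 libraries 2, 3 and 4 the 3 highest of these ratios, and the difference was 0.13 ± 0.22 (SE), exact permutation p = 0.567. It ran from 0.016 without HIL6 library 3 to 0.33 without HIL6 library 1 and was 0.26 without both libraries lowest in Tph2. The Maoa, Qdpr and Slc22a3 ratios to Tph2 differed between groups by 0.19 ± 0.46, 0.27 ± 0.55 and 0.045 ± 0.26 (SE), with exact permutation p = 0.65, 0.617 and 0.967, and each turned negative without HIL6 library 1, at -0.19, -0.15 and -0.19. Without both libraries lowest in Tph2 they were at 0.020, 0.14 and -0.11. The Slc22a3 difference was also negative without GFP library 1 (-0.015) and with no pseudocount (-0.066).

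**Figure D3:**
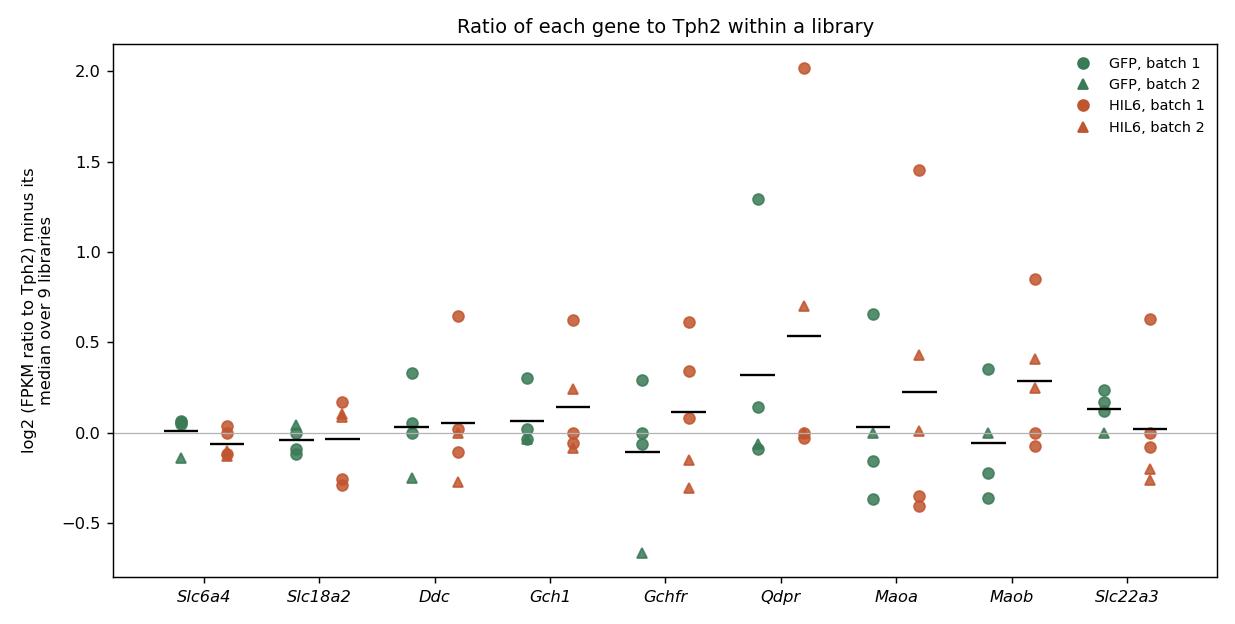
Log2 of the FPKM ratio of each gene to Tph2, minus its median over 9 libraries (vertical axis). Points are libraries (circles batch 1, triangles batch 2) and lines are group means. The Slc6a4 ratio spans 1.16 times between libraries and the Qdpr ratio 4.32 times.

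Across the 9 libraries, the slope of log2(FPKM + 0.5) on that of Tph2 differed between members. It was 0.97 ± 0.049 (SE) for Slc6a4, 0.83 ± 0.068 for Slc18a2, 0.64 ± 0.16 for Gchfr, 0.63 ± 0.074 for Ddc, 0.60 ± 0.027 for Gch1, 0.50 ± 0.079 for Slc22a3 and 0.50 ± 0.086 for Maob. It was 0.13 ± 0.068 for Maoa and -0.089 ± 0.053 for Qdpr. The added 0.5 lowers the slopes of low genes, Slc22a3 (mean 1.31 FPKM) most, so its place beside Maob is not a like comparison. Slopes within batch 1, with 6 libraries, were 0.99, 0.80, 0.71, 0.67, 0.61, 0.51, 0.47, 0.094 and -0.061 in the same order of genes. Batch 2 has too few libraries for a slope. Without HIL6 library 1 and GFP library 2, where Tph2 spans only 29.8 to 49.98 FPKM, the slope was 1.14 ± 0.17 for Slc6a4, 0.58 ± 0.23 for Slc18a2, 0.94 ± 0.25 for Ddc, 0.57 ± 0.10 for Gch1, 1.32 ± 0.54 for Gchfr, 1.02 ± 0.18 for Slc22a3 and 0.062 ± 0.26 for Maob. The Maob slope was smaller without those libraries, with a wide error, and the slopes of Slc6a4 and Gch1 were similar with and without them. These slopes hold no batch term, so a batch shift among the libraries left can enter them. A straight line in FPKM, extended below the data to a Tph2 level of 0, met the axis at -0.045 ± 1.96 (SE) FPKM for Slc6a4 and 1.23 ± 0.21 FPKM for Gch1. It met it at 7.48 ± 3.13 FPKM for Ddc and 6.88 ± 2.15 FPKM for Maob. As shares of the mean level these are -0.18%, 26.3%, 25.7% and 45.2%, and for Maoa the share was 84.6%.

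The libraries did not separate by treatment in any of the 10 genes. In the limma fit of HIL6 against GFP with batch as a term, 0 of the 10 passed Benjamini-Hochberg adjustment over 13958 genes, where 0% of all genes passed. None had an unadjusted p under 0.05, which 543 genes (3.89%) had, and none had groups that did not overlap, where every HIL6 library was above every GFP library for 0.53% of all genes and below for 0.229%. The differences were negative for 8 members, with a median of -0.22 on the log2 scale over the 10, against -0.0026 over all genes tested, of which 51.1% were negative. Because most members follow Tph2 across libraries, these are not 10 separate observations.

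The mean Tph2 level was 39.9 ± 12.5 FPKM (SD, n = 4) under GFP against 34.8 ± 14.3 FPKM (SD, n = 5) under HIL6, a log2 difference of -0.31 ± 0.40 (SE), 95% interval -1.20 to 0.57, limma adjusted p = 0.999. The interval is wide enough to hold both a marked fall and a moderate rise. For Slc6a4 the difference was -0.36 ± 0.39 and for Slc18a2 -0.33 ± 0.32. For Ddc, Gch1 and Slc22a3 it was -0.24 ± 0.26, -0.19 ± 0.25 and -0.27 ± 0.22. Without HIL6 library 1, Tph2, Slc6a4, Ddc and Gch1 changed sign, to 0.089, 0.035, 0.021 and 0.044, and Slc18a2 and Slc22a3 were at -0.021 and -0.10. Without GFP library 2 the values were larger, -0.55 for Tph2, -0.59 for Slc6a4, -0.53 for Slc18a2, -0.41 for Ddc, -0.35 for Gch1 and -0.43 for Slc22a3. Without both, all 6 stayed negative. Tph2, Slc6a4, Slc18a2, Ddc, Gch1 and Slc22a3 were then at -0.16, -0.21, -0.23, -0.15, -0.12 and -0.26, with limma adjusted p = 0.731, 0.617, 0.567, 0.567, 0.727 and 0.589. Over all alternatives the lowest limma adjusted p of any member was 0.322, for Maoa, and the highest 1.00.

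Gchfr and Maob did not share the sign of the other members, at 0.0055 ± 0.31 and 0.014 ± 0.20 (SE). Both turned negative on leaving out GFP library 2 or HIL6 library 2, 3 or 4, Gchfr also without GFP library 4, and both were highest without HIL6 library 1, at 0.32 and 0.23. Without both libraries lowest in Tph2 they were at 0.16 and 0.12. Maoa had the smallest p of the 10, at 17.1 ± 1.86 FPKM (SD, n = 4) against 16.1 ± 1.71 FPKM (SD, n = 5), a log2 difference of -0.12 ± 0.061 (SE), 95% interval -0.26 to 0.015, limma adjusted p = 0.999 (unadjusted 0.0758). It was negative within both batches, at -0.12 and -0.13. Qdpr was at -0.046 ± 0.068 (SE), 95% interval -0.20 to 0.11. The interaction of treatment and batch passed for 0 of the 10 members, against 2 of all genes (0.0143%) by limma. The within-batch differences of Tph2 were -0.30 in batch 1 and -0.34 in batch 2, where 1 GFP library stands alone.

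With the log2 level of Fev added as a term, the differences of Tph2, Slc6a4, Slc18a2, Ddc, Gch1 and Slc22a3 changed sign, to 0.31 ± 0.22, 0.26 ± 0.21, 0.17 ± 0.18, 0.18 ± 0.14, 0.18 ± 0.15 and 0.040 ± 0.17 (SE). Gchfr was then at 0.48 ± 0.18 and Maob at 0.33 ± 0.13. Both had a limma adjusted p = 0.9996 (unadjusted 0.0277 and 0.0297). In this fit 3.47% of all genes had an unadjusted value under 0.05. The adjusted p of all 10 was 1.00 by limma. Fev itself was at 10.9, 5.54, 6.01 and 6.16 FPKM in GFP and 2.89, 6.36, 7.13, 4.63 and 4.16 FPKM in HIL6 libraries, and GFP library 1 stood far above the rest. The direct ratio of Tph2 to Fev was 4.60, 3.91, 7.20 and 7.24 in GFP and 4.12, 7.32, 6.23, 8.87 and 7.17 in HIL6 libraries, with no separation of the groups (0.13 ± 0.26 (SE), exact permutation p = 0.7). That difference ran from 0.0052 without GFP library 2 to 0.30 without HIL6 library 1 and was 0.17 without both. The ratio of Slc6a4 to Fev gave 0.083 ± 0.25 (SE) and exact permutation p = 0.8, with -0.039 without GFP library 2 and 0.12 without both.

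**Figure D4:**
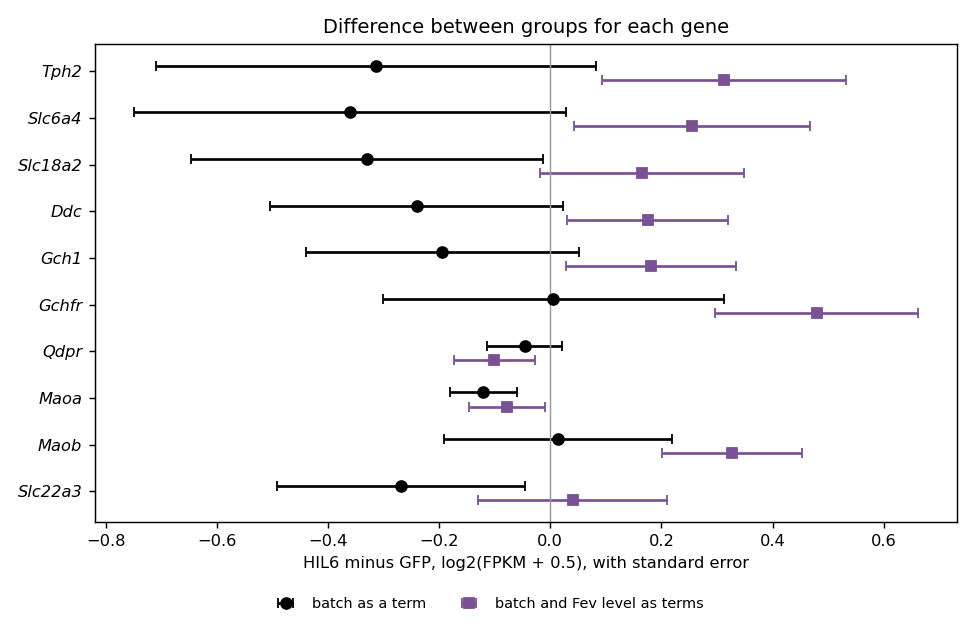
HIL6 minus GFP in log2(FPKM + 0.5) (horizontal axis) for the 10 genes, with standard errors. Circles are the fit with batch as a term, and squares the fit with batch and the level of Fev as terms. Tph2 lies at -0.31 in the first and 0.31 in the second, and no gene passed adjustment in either.

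Genes were then ranked by how steady their ratio to Tph2 was, as the SD over 9 libraries of the log2 ratio, with no test. Of 13957 genes, Slc6a4, Slc18a2, Gch1 and Ddc ranked 1 to 4, with SDs of 0.089, 0.16, 0.28 and 0.28, where the median gene had 0.69 and Tph2 alone 0.67. Slc22a3, Maob and Gchfr ranked 19, 22 and 24, Maoa 1275 and Qdpr 10059. Fev ranked 49, Lmx1b 154, Gata3 243 and Gata2 1087. The genes at ranks 5 to 10 were Cpne7, a copine, Irs4, an insulin receptor substrate, Gabrq, the theta subunit of the GABA-A receptor, Asb4, Tac1, the substance P precursor, and 1700086L19Rik. Tac1 was at 7.08 FPKM in HIL6 library 1 and 17.7 FPKM in GFP library 2 and reached 23.8 FPKM, and Gabrq was at 2.82 and 4.29 FPKM and reached 7.04 FPKM. Without both libraries lowest in Tph2 the order changed. Only 1 of the first 10 genes, Slc6a4, stayed among the first 10, and none of those at ranks 5 to 10 did. Slc22a3, Slc6a4, Gch1 and Ddc then ranked 3, 4, 23 and 51, Slc18a2 192, and Maob and Gchfr 5396 and 7918.

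**Figure D5:**
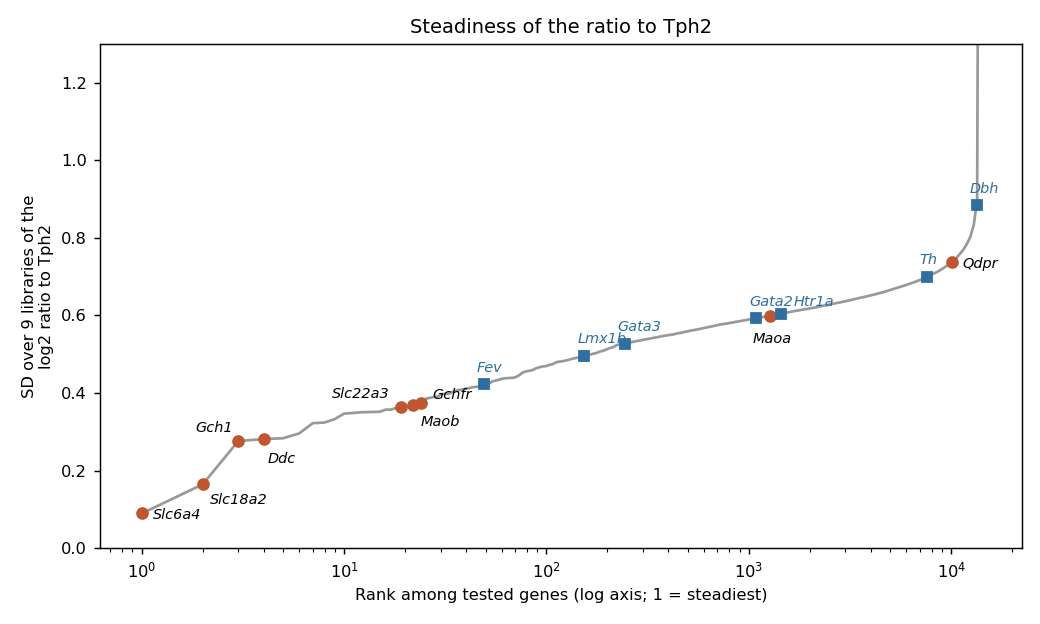
SD over 9 libraries of the log2 ratio of a gene to Tph2 (vertical axis) against its rank among 13957 genes (horizontal log axis). The grey line is all genes, red points are members and blue squares other genes of monoamine neurons. Slc6a4, Slc18a2, Gch1 and Ddc hold ranks 1 to 4, while Qdpr ranks 10059.

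Other genes of the pathway were read from lists, and by limma none of those described passed adjustment in the comparison of HIL6 with GFP. Of the 5 other genes of tetrahydrobiopterin synthesis and recycling 2 were above 0 and 3 below, and Spr, sepiapterin reductase, and Pcbd1 were at 0.092 ± 0.068 and -0.15 ± 0.13 (SE). Pts, which acts after Gch1 and before Spr, stayed between 18.3 and 20.5 FPKM in all libraries, a far narrower range than that of Gch1. Of 7 genes of tryptophan uptake and its other routes 4 were tested, all above 0. Among them Ido2 was at 0.77, 0.92, 0.90 and 0.72 FPKM in GFP and 1.25, 1.31, 1.18, 1.01 and 1.03 FPKM in HIL6 libraries, with every HIL6 library above every GFP library, as for 74 genes in all. Its log2 difference was 0.34 ± 0.10 (SE), with a limma adjusted p = 0.999 (unadjusted 0.00667). Slc7a5, a tryptophan carrier, was at 0.096 ± 0.091. Tph1, the hydroxylase of peripheral tissue, was at 0.371 FPKM or less.

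The 5 measured raphe identity genes were all below 0, some of them only slightly. Fev, Lmx1b and Gata3 were at -0.44 ± 0.26, -0.22 ± 0.23 and -0.20 ± 0.19 (SE). Gata2 and Nkx2-2 were at -0.056 ± 0.16 and -0.020 ± 0.086. Of the 4 autoreceptor genes 3 were below 0. By steadiness of the ratio to Tph2, Htr1d, Htr1a, Htr1b and Htr5b ranked 980, 1446, 2567 and 13838 of 13957 genes. Htr1b was at 9.29 ± 0.98 FPKM (SD, n = 4) against 8.30 ± 0.62 FPKM (SD, n = 5), a log2 difference of -0.18 ± 0.072 (SE), limma adjusted p = 0.999 (unadjusted 0.035). Htr1a was at -0.095 ± 0.097. Htr5b ranged from 0.22 FPKM in HIL6 library 1 to 34.1 FPKM in GFP library 3 and was at -1.18 ± 0.98. Th and Dbh were at 0.039 ± 0.21 and 0.15 ± 0.30, with Th at 1.01 to 2.43 FPKM and Dbh at 0.22 to 1.47 FPKM. Of the other transporters Slc18a1 and Slc29a4, the plasma membrane monoamine transporter, were at -0.30 ± 0.17 and -0.14 ± 0.096. Of 8 tested genes of aldehyde and methyl steps 5 were above 0, with Sult1a1 and Aldh1a1 at 0.43 ± 0.21 and 0.61 ± 0.32. All 7 genes of 14-3-3 proteins and kinases that act on Tph2 were below 0, with a median of -0.033 and with Ywhah and Camk2a at -0.088 ± 0.061 and -0.22 ± 0.17.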

How the data were processed

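The authors deposited a table of FPKM with a column for each library. The tools kallisto and DESeq2 and the build mm10 are named in the submitters' processing notes; their versions, the annotation and the scaling are not stated there. Because kallisto splits reads shared by transcripts by estimation, genes with several transcripts carry that error. Per the labels' protocols, the kit was stranded. Depth was estimated from single-transcript genes (GENCODE M21, GRCm38), where 97.8% to 100% of low values were whole within 0.05. Fragments of other genes could not be recovered, so no count test was run, and errors from fragments cover counting only.

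The 13958 genes averaging 0.5 FPKM or more were fitted as log2(FPKM + 0.5) with limma 3.58.1 in R 4.3.3, with mean-variance trend and batch as a term. Tests were two-sided, Benjamini-Hochberg adjusted over all genes at a threshold of 0.05. A difference on this scale understates changes of low genes. The procedure was tested on simulated data. Ratios are printed per library as FPKM over FPKM; their differences, SDs and slopes used log2(FPKM + 0.5), and differences were tested by exact two-sided permutation of groups within batches. Named genes were the 10 members, the 10 steadiest against Tph2, and Fev, Th, Dbh and Htr1a. Up to 2 genes of smallest p per pathway list were named too. Others were named after their values were seen (Tph1, Pts, Slc6a2, Slc6a3, Lmx1b, Gata2, Nkx2-2, Htr1d). The result of 1 list is not reported here. Members and lists were chosen with earlier results of these data known. Alternatives covered pseudocounts, filters, scaling, weights, batch handling and single libraries.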

Additional observations from a re-analysis of the deposited data

Results flagged for a closer look

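Among 84 group values examined, 11 had a library far from the others of its group by Dixon's criterion. By chance the criterion flags about 1 in 20 of the values examined. Many of the 84 share Tph2 as the denominator, so they are not separate observations. HIL6 library 1 and GFP library 2, the libraries lowest in Tph2, account for 5 ratios to Tph2. In HIL6 library 1 the Ddc ratio was 1.24 (others 0.656 to 0.803), the Qdpr ratio 31.8 (others 7.69 to 12.7) and the Slc22a3 ratio 0.0534 (others 0.0288 to 0.0345). In GFP library 2 the Gch1 ratio was 0.151 (others 0.119 to 0.124) and the Qdpr ratio 19.2 (others 7.36 to 8.67). GFP library 4, the 1 GFP library of batch 2, had a Slc6a4 ratio to Tph2 of 0.616 (others 0.701 to 0.711) and a Gchfr ratio to Gch1 of 1.25 (others 1.90 to 1.92). Among levels, Fev was at 10.9 FPKM in GFP library 1 (others 5.54 to 6.16), Dbh at 1.47 FPKM in HIL6 library 4 (others 0.325 to 0.520), Pcbd1 at 19.7 FPKM in HIL6 library 1 (others 27.3 to 30.0) and Slc7a5 at 23.3 FPKM in GFP library 4 (others 27.4 to 27.9).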

How the results depend on the processing

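No member passed adjustment under any alternative run. Over all genes 0 passed in the fit reported, 9 with weights for each library, and 0 to 2 on leaving out single libraries, the 2 without HIL6 library 2. Of 210 alternative values of the member differences 189 kept their sign and side of the threshold and 21 changed sign. With Fev as a term Tph2, Slc6a4, Slc18a2, Ddc, Gch1 and Slc22a3 were at 0.31, 0.26, 0.17, 0.18, 0.18 and 0.040. Gchfr was at -0.046 with no batch term and -0.029 in batch 1 alone. On leaving out single libraries the ranges were -0.55 to 0.089 for Tph2, -0.59 to 0.035 for Slc6a4, -0.41 to 0.021 for Ddc, -0.35 to 0.044 for Gch1, -0.17 to 0.32 for Gchfr and -0.096 to 0.23 for Maob. The cause was not tested.

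Of 195 alternative values of the 13 ratios 14 changed sign, and 1, Gchfr to Tph2 without HIL6 library 2 (0.42), had an exact permutation p under 0.05 before any adjustment over the 13. The Slc22a3 ratio to Tph2 was -0.036 with a pseudocount of 0.1, -0.066 with none and -0.11 without both libraries lowest in Tph2, the last 2 chosen after seeing the data. Single libraries moved the ratio to Tph2 from -0.11 to 0.044 for Slc18a2, -0.068 to 0.17 for Ddc, -0.046 to 0.21 for Gch1, -0.15 to 0.55 for Qdpr, -0.19 to 0.40 for Maoa and -0.19 to 0.16 for Slc22a3, and Slc6a4 to Fev from -0.039 to 0.25. Of the 10 steadiest genes 4 were members, and 2 without both libraries lowest in Tph2.

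With the replicate number as a replicate block in place of batch, 0 genes passed and Tph2 was at -0.25. Deviations of same-numbered libraries from their group means correlated at 0.13, 0.14, 0.27 and 0.46, but these hold the batch difference. Within batch 1 they were 0.019, -0.11 and 0.27, and GFP library 2 with HIL6 library 1, of unlike number, reached 0.28. So few values cannot tell whether the numbers pair libraries, and the fit reported did not treat them as pairs. Depth limits Gchfr, with a counting error of up to 12.2%, and Slc22a3 and Fev, with 10.9% and 8.84% at their lowest values. The errors of Slc22a3 and Fev assume that all fragments came from the longest transcript, and would be larger for shorter ones. Fev has 3 annotated transcripts, of 458 to 1490 nucleotides.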
